A study of Homo sapiens with 6 samples.

Results

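The loci described here are 144 loci of K562 cells that carry the name of an antisense RNA, taken from a table of 62828 loci. Such names are mostly given to long non-coding RNAs, but whether each member is non-coding was not checked. A locus was included when its name field held exactly 1 gene name, that name ended in -AS or in -AS and a number, and the mean of its 6 values was at least 1 FPKM (fragments sequenced, normalized to transcript length and library size). Of 810 loci with a single antisense name, 355 were listed at 0 in all 6 libraries and 144 reached the minimum. The members were chosen by their mean level over the 6 libraries, so their levels are given as a description only. Just inside the minimum lay SRP14-AS1 (mean 1.01 FPKM), ITPR1-AS1 (1.03 FPKM) and RUSC1-AS1 (1.05 FPKM), and just outside it KMT2E-AS1 (0.996 FPKM), RHPN1-AS1 (0.994 FPKM) and TLR8-AS1 (0.989 FPKM). Another 24 loci at the minimum joined an antisense name with other names and are not members, because their values cannot be assigned to the antisense RNA.

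K562 is an established line grown from chronic myelogenous leukaemia. Cells received 300 nM siRNA against HNRNPU or control oligos, and RNA was sequenced from whole cells, nuclei and cytosol of each condition. The 6 groups are therefore control whole-cell, control nuclear, control cytosolic, knockdown whole-cell, knockdown nuclear and knockdown cytosolic RNA, with 1 library each. The series asks whether HNRNPU, a nuclear matrix protein that binds RNA and chromatin, affects where long non-coding RNAs are found. With 1 library per group no value has a replicate check and no test between conditions is possible, so sizes are set beside the same sizes over all loci. In RNA from many cells, fewer cells holding a transcript and less of it per cell cannot be told apart.

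An antisense RNA is transcribed from the DNA strand opposite to a neighbouring or overlapping gene, the sense gene, after which it is named. Many start close to the sense gene's own promoter and run the other way, as divergent transcripts do. Others begin inside or beyond the sense gene and overlap its exons or introns. Some members of the class act on the sense gene in cis, by affecting its chromatin, transcription or splicing, and others work away from their site of transcription or have no known function.

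The sense gene was found for 142 of the 144 members, at 140 loci. MKLN1-AS1 and MKLN1-AS2 share MKLN1, and DLGAP1-AS1 and DLGAP1-AS2 share DLGAP1, so these 4 members do not give independent pairs. No locus carried the name before the suffix for HOXC-AS1 and C17orf76-AS1. In the hg19 coordinates of the table, 111 pairs overlapped and 31 did not, and 30 of those 31 lay within 1 kb of each other. Of the 111, 25 had the antisense locus wholly inside that of the sense gene. The sense gene itself was below 1 FPKM in 11 pairs, and its locus carried several names in 17. The libraries were prepared with a strand-specific procedure, but the sources do not state the strand setting of the counting, so reads of overlapping partners may not have been fully told apart.

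RefSeq start positions were found for both partners of 101 pairs. In 64 of them the partners ran on opposite strands from starts at most 1000 bases apart, which is the arrangement of a shared, bidirectional promoter. The starts pointed away from each other in 49 of the 64 and the transcribed regions overlapped at their starts in 15. The other 37 pairs were on opposite strands with starts farther apart. The stretches between the starts of 4 divergent pairs are printed because these antisense RNAs recur in the results while their sense genes behave differently. Each is given 5′ to 3′ on the strand of the antisense RNA, from RefSeq on GRCh38.p14, with the matches to the 6 searched motifs in capitals. RefSeq calls the first and the last of them EIF3J-DT and USP46-DT, for divergent transcript.
EIF3J-AS1 (chr15:44536924-44537146, minus strand): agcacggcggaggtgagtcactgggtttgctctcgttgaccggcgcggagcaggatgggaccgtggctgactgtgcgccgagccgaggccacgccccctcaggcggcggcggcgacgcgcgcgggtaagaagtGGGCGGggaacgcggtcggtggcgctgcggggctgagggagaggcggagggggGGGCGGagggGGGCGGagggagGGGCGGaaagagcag
LENG8-AS1 (chr19:54449039-54449198, minus strand): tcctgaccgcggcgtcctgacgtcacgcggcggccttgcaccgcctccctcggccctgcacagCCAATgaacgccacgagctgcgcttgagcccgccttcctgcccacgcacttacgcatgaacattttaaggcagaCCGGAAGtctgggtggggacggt
TPT1-AS1 (chr13:45341184-45341344, plus strand): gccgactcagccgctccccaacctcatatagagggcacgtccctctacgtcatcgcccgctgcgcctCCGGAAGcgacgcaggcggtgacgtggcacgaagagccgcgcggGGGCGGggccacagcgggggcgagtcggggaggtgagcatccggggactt
USP46-AS1 (chr4:52659302-52659405, plus strand): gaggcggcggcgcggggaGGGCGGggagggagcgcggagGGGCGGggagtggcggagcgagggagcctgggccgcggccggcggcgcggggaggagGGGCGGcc

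The motifs searched, on both strands, were a promoter element of the letters TATAAA, the CCAAT box, the SP1 box searched as GGGCGG, the palindromic core of the NRF1 motif, the ETS core searched as CCGGAAG and the ZNF143 core searched as ACTACAA. The 223 bases between EIF3J-AS1 and EIF3J hold 4 SP1 boxes. The 160 bases between LENG8-AS1 and LENG8 hold 1 CCAAT box and 1 ETS core. The 161 bases between TPT1-AS1 and TPT1 hold 1 SP1 box and 1 ETS core. The 104 bases between USP46-AS1 and USP46 hold 3 SP1 boxes, and none of the 4 stretches holds TATAAA.

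Over windows from 250 bases before to 50 bases after a start, 113 members had a RefSeq promoter. GGGCGG was present in 61.1% of them, in 71.9% of the 64 members that start head to head with the sense gene, and in 44.6% of all 27305 promoters of that length. CCGGAAG was present in 17.7% of member promoters against 10.7% of all, and TATAAA in 5.31% against 12%. The remaining motifs differed less from the background in percentage points, with CCAAT in 38.1% against 35.7%, the NRF1 core in 2.65% against 1.36% and ACTACAA in 3.54% against 2.95%. The NRF1 core was found in only 3 member promoters and ACTACAA in 4, too few to compare as ratios. Member promoters had a median of 26 CpG dinucleotides and 67% G and C, against 14 and 58.3% in all promoters. The member promoters were thus richer in CpG and SP1 boxes than promoters in general, and most so where the sense gene starts alongside. All promoters were counted whether or not their genes reached the minimum, and promoters of expressed loci were not compared. The share of GGGCGG was not separated from the G and C content. A match is a description of letters, not a site shown to be bound.

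The libraries matched their labels where this could be checked. HNRNPU kept 43.0% of its control value in whole-cell RNA, 39.0% in nuclear RNA and 22.1% in cytosolic RNA, although its locus is merged with HNRNPU-AS1 and the antisense part cannot be separated. MALAT1, a nuclear RNA, was 14.1 times higher in the nuclear than in the cytosolic control library. All 8 erythroid markers were present, with a summed level of 1297 to 3525 FPKM (HBG2 and HBE1 share a merged locus and are both counted). Of 8 markers of other blood cells, 3 reached 1 FPKM (CD3D 15.2, LYZ 2.59 and CD3E 1.68 FPKM), MS4A1 was at 0 throughout, and the sum stayed between 14.6 and 25.6 FPKM. The part of other cell types in the results below was not tested. One FPKM on 1 kb of transcript corresponded to an estimated 13.4 fragments in the control cytosolic, 14.8 in the knockdown cytosolic, 18.7 to 23.1 in the whole-cell and control nuclear, and 39.0 in the knockdown nuclear library, so the cytosolic values are the least precise.

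Most members were expressed at low levels. The median of their mean levels was 3.26 FPKM, 45 of 144 lay below 2 FPKM, and the range ran from 1.01 to 868 FPKM. The highest was C17orf76-AS1, a host transcript of small nucleolar RNAs. Its control and knockdown values were 475 and 480 FPKM in whole cells, 350 and 382 FPKM in nuclei, and 1841 and 1681 FPKM in cytosol. That is far above the second member, PSMD5-AS1, at a mean of 64.4 FPKM. A locus named FAM211A, which RefSeq lists as an older name of the same gene as C17orf76 (now LRRC75A), would be the sense partner by that alias. It stood at 2.44 FPKM in control whole-cell RNA, 2.82 FPKM in nuclear RNA and 0.212 FPKM in cytosolic RNA, so it was higher in the nuclear fraction, with a log2 ratio of nuclear to cytosolic level of 3.23 against -2.40 for C17orf76-AS1.

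The antisense RNA was usually the weaker partner. In control whole-cell RNA its level was above that of the sense gene in 31 of 142 pairs and more than 10-fold below it in 32, and the median log2 ratio of antisense to sense was -1.57 on log2(FPKM + 0.1), the scale of every log2 value here. In control cytosolic RNA that median was -2.42, and in control nuclear RNA -1.62. The levels of partners were not aligned across pairs, with Pearson's r of -0.14 over 142 pairs from the same library.

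Among the pairs most tilted to the sense gene, VIM-AS1 stood at 3.51 FPKM beside 396 FPKM for VIM, the intermediate filament vimentin, in control whole-cell RNA. TPT1-AS1 stood at 3.57 FPKM beside 720 FPKM for TPT1, which encodes the translationally controlled tumour protein. SLC25A5-AS1 stood at 0.612 FPKM beside 132 FPKM for SLC25A5, a mitochondrial ADP/ATP carrier, and DYNLL1-AS1 at 3.12 FPKM beside 155 FPKM for DYNLL1, a dynein light chain. In these 4 pairs the antisense RNA was at or below 2.02% of its partner. GAS5-AS1 (3.89 FPKM) and STXBP5-AS1 (0.924 FPKM) completed the lowest 6.

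In the opposite direction some antisense RNAs stood far above the sense gene. FGD5-AS1 stood at 15.5, 14.1 and 45.5 FPKM in the control whole-cell, nuclear and cytosolic libraries, while FGD5, an endothelial guanine nucleotide exchange factor, was listed at 0 in 5 of the 6 libraries and at 0.0206 FPKM in the control nuclear one. DLGAP1-AS2 stood at 30.1 FPKM and DLGAP1-AS1 at 4.07 FPKM in control whole-cell RNA, with 0.0834 FPKM for DLGAP1, a postsynaptic scaffold gene. EPB41L4A-AS1 stood at 22.0 FPKM against 1.38 FPKM for EPB41L4A. ZNF385D-AS1 (6.16 FPKM) and CKMT2-AS1 (2.94 FPKM) belong to the same group, with sense genes at 0.136 and 0.0812 FPKM. These levels are per kilobase, so they can be set side by side.

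**Figure D1:**
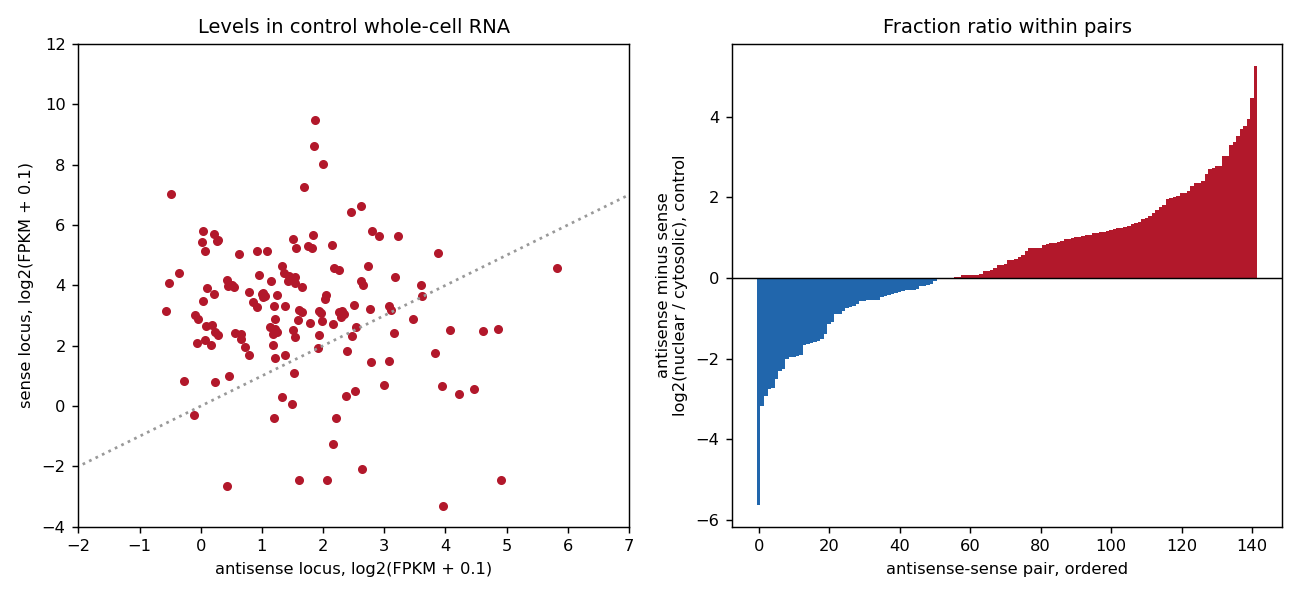
Left: level of the sense locus (vertical) against the antisense locus (horizontal) in control whole-cell RNA for 142 pairs, both as log2(FPKM + 0.1), with the dotted line at equal levels; 31 pairs lie below it, on the antisense side. Right: log2 nuclear to cytosolic ratio of the antisense minus that of the sense locus in the control, 1 bar per pair in order of size; 87 of 142 bars are above 0.

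In the control, the members covered the whole range from nuclear to cytosolic. The median log2 ratio of nuclear to cytosolic level was -0.31 (95% interval over members -0.48 to 0.01) for the 144 members, -0.63 for the 130 sense loci at 1 FPKM or more and -0.44 for all 12838 loci at that level. At least 2-fold higher in the nuclear library were 31 members (21.5%), against 16% of all loci, and at least 2-fold higher in the cytosolic library were 32 members (22.2%), against 29.1% of all loci. Among the 130 sense loci, 11 were on the nuclear and 49 on the cytosolic side by that size. The FPKM of the fractions are each relative to their own library, so the ratio places loci against each other and not in absolute shares. Scaling the libraries to a common median moved the median ratio of all loci by 0.41, and equal totals without mitochondrial and small RNA moved it by 1.22.

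Within pairs the antisense RNA tended to the nuclear side. It had the higher nuclear to cytosolic ratio in 87 of 142 pairs (61.3%) in the control and in 92 (64.8%) after knockdown, with median differences of 0.39 and 0.35. The median difference in the control was 0.35 under either of those scalings and reversed to -0.072 under quantile normalization, and it was 0.056 over the 46 pairs whose antisense RNA had a mean of at least 5 FPKM. Level and ratio were linked in the whole table: loci of 1 to 2 FPKM had a median log2 ratio of 0.95 and those of 10 FPKM or more -0.83. The 45 members of 1 to 2 FPKM had a median of -0.05, well below all loci of that level, and the 21 members of 10 FPKM or more had -0.75. Between these, members of 2 to 5 FPKM had -0.19 against -0.05 of all loci. At 5 to 10 FPKM the order was the other way, with -0.05 for members against -0.40.

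The 6 most nuclear members were also on the nuclear side after knockdown. ZRANB2-AS1, named after a splicing-related zinc finger gene, stood at 4.63 FPKM in the control nuclear and 5.76 FPKM in the knockdown nuclear library, and was listed at 0 in the control cytosolic library and at 0.625 FPKM in the knockdown one. CELF2-AS1 stood at 3.40 and 3.05 FPKM in nuclei and at 0.263 and 0.178 FPKM in cytosol, control first, a log2 ratio of 3.27 in the control. CELF2, an RNA-binding protein gene, had -1.19. RNF139-AS1 (3.46), RBM12B-AS1 (2.77) and TMEM161B-AS1 (2.33) were also among the 6 most nuclear members by log2 ratio. Of the 5 sense genes of the members named here, RBM12B had the highest log2 ratio, 0.50. GAS5-AS1 shows the same contrast within a pair of non-coding RNAs, at 1.93 against -1.83 for GAS5, itself a host of small nucleolar RNAs.

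The most cytosolic members were CHKB-AS1 (-4.84, listed at 0 in the control nuclear library), ZNF32-AS1 (-2.60), IDH1-AS1 (-2.55), WDFY3-AS2 (-2.54), C17orf76-AS1 and OIP5-AS1 (-2.26). OIP5-AS1 is known as Cyrano and studied for its pairing with a microRNA. Its control and knockdown values were 28.8 and 27.8 FPKM in whole cells, 18.2 and 22.5 FPKM in nuclei, and 88.0 and 75.9 FPKM in cytosol. The nuclear value was thus higher and the cytosolic value lower after knockdown, a shift of 0.52, which is 5.8 times its counting error. OIP5, a gene of centromere assembly on the other strand, had a shift of 0.24.

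The localization shift is the log2 nuclear to cytosolic ratio after knockdown minus that in the control, so that a value below 0 means relatively more in the cytosol. The median shift of the members was -0.03 (95% interval over members -0.13 to 0.11), beside 0.04 for the sense loci and 0.00 for all loci, and 67 of 144 were above 0. The ratios before and after knockdown had Pearson's r of 0.84 across the 144 members, with no library in common. At least 2-fold nuclear after knockdown were 25 members (17.4%), against 14.4% of all loci, and at least 2-fold cytosolic 33 (22.9%), against 28.4% of all loci. Of the members at least 2-fold nuclear in the control, 21 were still so after knockdown, and 25 members were at least 2-fold cytosolic in both. The same counts over all loci are not given, so these do not show anything particular to the members.

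A shift of at least 2-fold was found for 14 members. Toward the cytosol there were 7 (4.86%), against 3.82% of all loci, and toward the nucleus 7 (4.86%), against 3.28% of all loci. Both shares are near the background. Of the 7 toward the cytosol 3 had a mean of 1 to 2 FPKM and 4 of 2 to 5 FPKM, and of the 7 toward the nucleus 4, 2 and 1 had 1 to 2, 2 to 5 and 5 to 10 FPKM. Of the members of 1 to 2 FPKM 15.6% passed 2-fold in either direction, of those of 2 to 5 FPKM 11.5%, of those of 5 to 10 FPKM 3.85% and of those above none, against 26.2%, 11.9%, 2.48% and 0.906% of all loci. The median counting error of the shift, from estimated fragment numbers, was 0.39 for members and 0.15 for sense loci. Outside their 95% counting interval were 9 of the 14, 5 toward the cytosol (3.55% of 141 members with a length, against 1.58% of all such loci) and 4 toward the nucleus (2.84%, against 1.11%). Among the 109 members with at least 10 estimated fragments in each fraction library, 4 shifted 2-fold toward the cytosol (SNAI3-AS1, RNF144A-AS1, EIF3J-AS1 and UBAC2-AS1) and 1 toward the nucleus (TPT1-AS1). With a pseudocount of 1 the counts were 3 and 4. Shares of all loci are not given for the fragment filter or for that pseudocount, so no lean of the members in either direction is read from these counts.

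In 13 of the 14 the value that differed by 2-fold was the cytosolic one. Only CHKB-AS1 differed by 2-fold in nuclear RNA, and none of the 14 did in whole-cell RNA. Over all members the cytosolic knockdown to control ratio passed 2-fold upward in 9 (6.25%) and downward in 10 (6.94%), against 2.62% and 2.63% of all loci, while the nuclear ratio did so in 4 and 1, against 1.04% and 1.5% of all loci. The median cytosolic ratio was 0.13 (95% interval over members 0.04 to 0.23), beside 0.03 for all loci and 0.00 for the sense loci. An estimated count below 10 fragments in a cytosolic library was found for 8 of the 14 and for 27 of all 144 members. The part of this low count in the result was not tested.

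**Figure D2:**
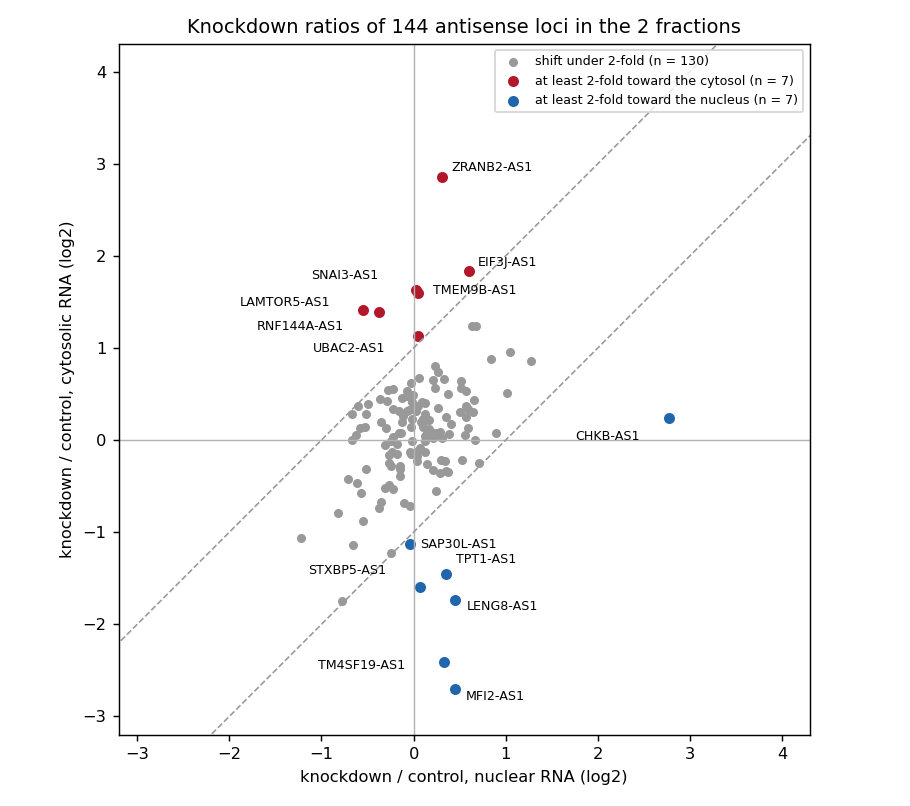
Knockdown to control ratio in cytosolic RNA (vertical) against nuclear RNA (horizontal) for 144 antisense loci, both log2, 1 library per condition and fraction, with dashed lines at a 2-fold difference between the ratios. The 14 named loci lie beyond the lines, and 13 of them differ mainly along the vertical axis.

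Toward the cytosol, SNAI3-AS1 (chr16:88729705-88753594, hg19) had the best supported shift. It stood at 2.70 and 3.25 FPKM in control and knockdown whole cells, 5.30 and 5.39 FPKM in nuclei and 2.09 and 6.71 FPKM in cytosol. Only the cytosolic value differed by 2-fold, and the shift of -1.61 was 5.2 counting errors. SNAI3, a Snail family zinc finger gene, stood at 0.740 and 1.81 FPKM in nuclei and 2.16 and 1.68 FPKM in cytosol, a shift of 1.53 in the opposite direction.

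RNF144A-AS1 (chr2:7052407-7058840, hg19) stood at 1.79 and 1.5 FPKM in whole cells, 2.32 and 1.77 FPKM in nuclei and 1.20 and 3.30 FPKM in cytosol, a shift of -1.76 at 4.2 counting errors. RNF144A, a ubiquitin ligase gene, was lower in all 3 preparations and had a shift of 0.16. EIF3J-AS1 stood at 2.67 and 4.09 FPKM in nuclei and 1.27 and 4.80 FPKM in cytosol, so that a nuclear RNA of the control (1.01) had a ratio of -0.23 after knockdown, a shift of -1.24 at 2.8 counting errors. That shift was -0.88 with a pseudocount of 1 and -0.63 under quantile normalization, so the 2-fold size was lost under both. EIF3J, which encodes a subunit of translation initiation factor eIF3 and starts 224 bases away, had a shift of 0.41.

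LAMTOR5-AS1 stood at 3.33 and 2.24 FPKM in nuclei and 0.915 and 2.61 FPKM in cytosol, a shift of -1.97 on an estimated 5.40 fragments in the control cytosolic library. LAMTOR5, a subunit of the Ragulator complex, had a shift of 0.17. From at least 2-fold nuclear in the control to a log2 ratio below 0 after knockdown went 3 members (2.08%), LAMTOR5-AS1, EIF3J-AS1 and SNAI3-AS1, against 0.561% of all loci. In the reverse direction went 2 (1.39%), TPT1-AS1 (-0.80 to 1.01) and MFI2-AS1 (-0.40 to 2.75), against 0.218% of all loci. UBAC2-AS1 (-1.08), TMEM9B-AS1 (-1.55) and ZRANB2-AS1 (-2.55) complete the 7. With a pseudocount of 1 they had -0.65, -0.75 and -0.44, and under quantile normalization UBAC2-AS1 had -0.60 and TMEM9B-AS1 -0.96. The value for ZRANB2-AS1 rests on its control cytosolic library, listed at 0, and that for TMEM9B-AS1 on an estimated 2.41 fragments there.

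Toward the nucleus, LENG8-AS1 (chr19:54955990-54960223, hg19) stood at 9.27 and 6.10 FPKM in control and knockdown whole cells, 5.70 and 7.84 FPKM in nuclei and 4.27 and 1.22 FPKM in cytosol. Its shift was 2.19 at 3.6 counting errors, although it did not have at least 10 estimated fragments in each fraction library. LENG8, which starts 161 bases away, had the opposite sign at -0.52, with 41.7 and 37.2 FPKM in nuclear and 14.6 and 18.7 FPKM in cytosolic RNA. TPT1-AS1 (chr13:45915479-45965872, hg19) stood at 3.57 and 4.51 FPKM in whole cells, 1.83 and 2.35 FPKM in nuclei and 3.25 and 1.12 FPKM in cytosol, a shift of 1.80 at 3.5 counting errors. TPT1, one of the most abundant mRNAs here at 2864 FPKM in control cytosolic RNA, had a shift of 0.27.

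STXBP5-AS1 stood at 1.21 and 1.28 FPKM in nuclei and 2.14 and 0.644 FPKM in cytosol, a shift of 1.66, beside 0.13 for STXBP5, the syntaxin-binding protein tomosyn. TM4SF19-AS1 stood at 1.71 and 2.18 FPKM in nuclei and 1.10 and 0.125 FPKM in cytosol, a shift of 2.75 at 3.0 counting errors. That shift was 1.13 with a pseudocount of 1 and 3.39 with 0.01. Neither STXBP5-AS1 nor TM4SF19-AS1 had at least 10 estimated fragments in each fraction library. The sense gene of TM4SF19-AS1 lies in a merged locus of 4 names with a shift of 0.05. MFI2-AS1 (3.15), SAP30L-AS1 (1.09) and CHKB-AS1 (2.54) were within their 95% counting interval. With a pseudocount of 1 the shift was 0.98 for STXBP5-AS1, 0.48 for SAP30L-AS1 and 0.48 for CHKB-AS1, and SAP30L-AS1 had 0.71 under quantile normalization and 0.96 with equal totals. MFI2-AS1 rests on an estimated 3.66 and 0.324 fragments in the cytosolic libraries, and CHKB-AS1 on its control nuclear library, listed at 0. MFI2, the melanotransferrin gene, had a shift of -1.03, again opposite to its partner.

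The sense genes of the 14 did not share the shift. Of these 14 sense loci, 5 had a shift of the same sign, none passed 2-fold in the same direction, and 2 (SNAI3 and MFI2) passed it in the opposite direction. Across all 142 pairs the signs of the shift matched in 68 (47.9%), and Pearson's r of the shift was -0.18. Spearman's rank correlation was weaker, at -0.09, and r was -0.10 with a pseudocount of 0.01. Over the 131 pairs with the sense locus at 1 FPKM or more r was -0.21, and over the 125 with a single-name sense locus also -0.21. For comparison, neighbouring loci that overlap, both with a single name and 1 FPKM or more, had the same sign in 50.9% of 1282 pairs with r of 0.00, and neighbours that do not overlap in 52.0% of 8854 pairs with r of 0.01. All points share the same 4 fraction libraries, whose errors enter both partners.

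The same held for the other measures. The nuclear to cytosolic ratio had r of 0.05 across pairs in the control and 0.11 after knockdown, beside 0.08 and 0.11 for overlapping neighbours. The knockdown to control ratio had r of 0.00 in whole-cell RNA, -0.20 in nuclear RNA and -0.02 in cytosolic RNA, and the signs matched in 74, 71 and 77 of 142 pairs. Spearman's rank correlation in nuclear RNA was -0.11. Among the 32 pairs with both partners at 5 FPKM or more, where counting error is smaller, r was -0.11 for the shift, 0.02 for the whole-cell ratio and 0.18 for the control nuclear to cytosolic ratio. Among the 64 head-to-head pairs r was -0.21, -0.08 and 0.04 for these measures. The 31 pairs that do not overlap had -0.39, 0.22 and 0.03, with the same sign of the shift in 11 and of the whole-cell ratio in 20.

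**Figure D3:**
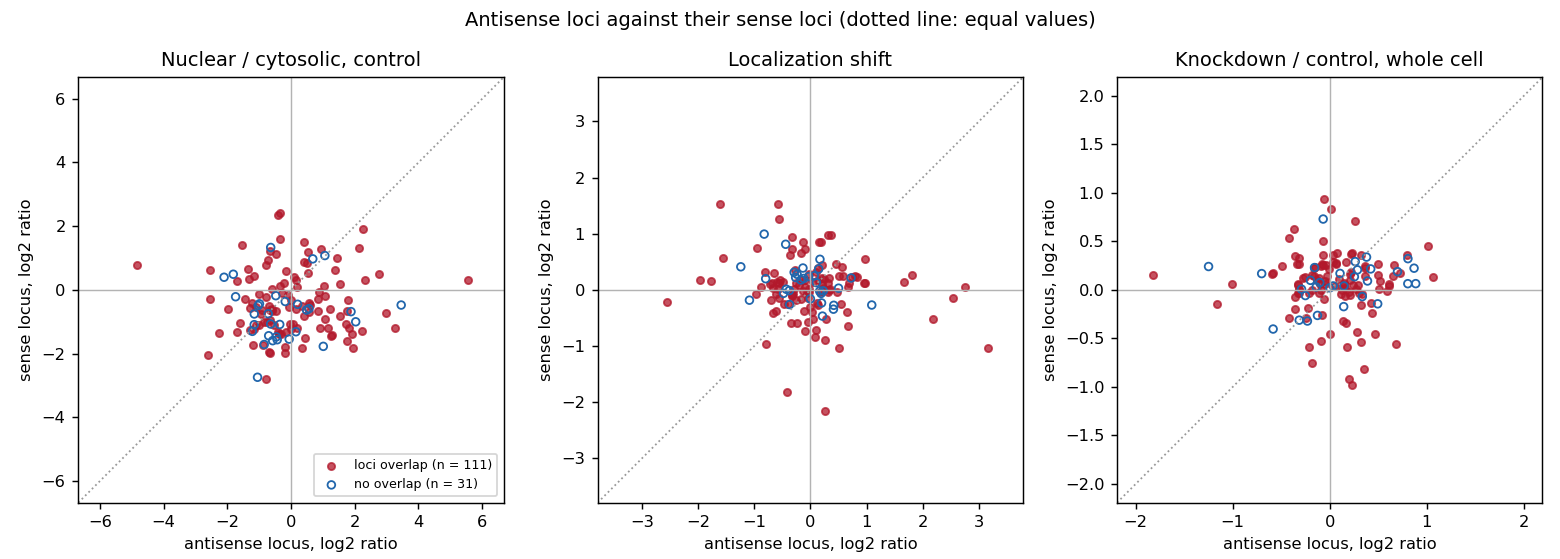
Sense locus (vertical) against antisense locus (horizontal) for 142 pairs: log2 nuclear to cytosolic ratio in the control, localization shift, and log2 knockdown to control ratio in whole-cell RNA. Filled points are 111 pairs whose loci overlap, open points 31 that do not, and the dotted line marks equal values; the points do not follow it in any panel (r of 0.05, -0.18 and 0.00).

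The 5 pairs with the closest shifts were picked by that value among the 32 with both partners at 5 FPKM or more. Near-equal shifts among them therefore follow from the choice, and over the 32 pairs the sign matched in 13. PITPNA-AS1 and PITPNA both had -0.06, with control ratios of -1.28 and -1.25. WAC-AS1 had 0.20 and WAC 0.21, with control ratios of -1.02 and -1.10. PSMD5-AS1, at 56.4 and 55.9 FPKM in whole-cell RNA, had -0.13 beside -0.02 for PSMD5, a chaperone gene of proteasome assembly, although the antisense RNA was on the nuclear side (0.55) and PSMD5 on the cytosolic one (-0.69). PRKCQ-AS1 and PRMT5-AS1 complete the 5 closest pairs at 5 FPKM or more.

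At the other end, VPS9D1-AS1 had a shift of -0.42 and VPS9D1 one of -1.81. VPS9D1 stood at 3.38 and 3.66 FPKM in nuclear RNA but at 8.92 and 34.1 FPKM in cytosolic RNA, while VPS9D1-AS1 stood at 18 and 17.8 FPKM and at 23.4 and 31.1 FPKM. DHRS4-AS1 (0.09 against -0.84), NNT-AS1 (-0.32 against 0.72) and NR2F2-AS1 (-0.80 against 0.32) complete the 5 farthest pairs at 5 FPKM or more, with LENG8-AS1. DHRS4 has near-identical gene copies beside it, and its value is uncertain for that reason. The 2 antisense RNAs of MKLN1 also differed from each other, MKLN1-AS1 at 1.23 and MKLN1-AS2 at -1.98 in the control, with shifts of -0.26 and 0.69.

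In whole-cell RNA the members had a median knockdown to control log2 ratio of 0.04, beside 0.06 for all loci. At least 2-fold higher were 3 members (2.08%), against 1.36% of all loci, and at least 2-fold lower 4 (2.78%), against 1.29% of all loci. With a pseudocount of 1 in place of 0.1 none of these 7 members passed 2-fold. Of the 45 members of 1 to 2 FPKM, 5 passed 2-fold in either direction (11.1%, against 10.1% of all loci of that level). At 2 to 5 FPKM it was 1 member (1.92%, against 3.83%) and at 5 to 10 FPKM 1 (3.85%, against 1.30%). At 10 FPKM or more it was 0, against 0.336% of all loci. No sense locus at 1 FPKM or more passed 2-fold in either direction. The 3 higher ones were HOXC-AS1 (0.683 to 1.85 FPKM), RBM26-AS1 (0.923 to 2.04 FPKM) and MATN1-AS1 (1.25 to 2.62 FPKM), and 2 of them (1.42% of members with a length, against 0.619% of all such loci) were outside their 95% counting interval, HOXC-AS1 not. None of the 3 was also 2-fold higher in a fraction. MATN1-AS1 had 3.51 and 2.99 FPKM in nuclear and 1.13 and 1.72 FPKM in cytosolic RNA, and MATN1, a cartilage matrix gene, was at or below 0.187 FPKM in all 6 libraries.

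The 4 lower members were HCFC1-AS1, OSER1-AS1, PSMG3-AS1 and CIRBP-AS1, and all but HCFC1-AS1 were outside their 95% counting interval (2.13%, against 0.465% of all such loci). CIRBP-AS1, opposite the gene of a cold-inducible RNA-binding protein, stood at 7.45 and 3.66 FPKM in whole-cell RNA but at 4.59 and 6.88 FPKM in nuclear and 3.47 and 4.14 FPKM in cytosolic RNA. PSMG3-AS1 stood at 1.93 and 0.809 FPKM in whole-cell, 0.996 and 1.20 FPKM in nuclear and 1.66 and 1.10 FPKM in cytosolic RNA. OSER1-AS1 stood at 1.03 and 0.377 FPKM in whole-cell, 0.757 and 0.994 FPKM in nuclear and 1.89 and 2.26 FPKM in cytosolic RNA. Both fractions of CIRBP-AS1 and OSER1-AS1 were higher after knockdown while the whole-cell value was lower, and PSMG3-AS1 was lower in cytosolic but not in nuclear RNA.

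The 3 preparations are separate libraries, and a member that differs alike in all of them is less dependent on any 1 library. The labels do not state separate cultures for them, so a like difference in all 3 is not a replicate of the knockdown. At least 1.5-fold higher in all 3 were 5 members (3.47%), against 0.343% of all loci, and 1 (0.694%) was at least 1.5-fold lower in all 3, against 0.234% of all loci. The share among all loci was 1.08% at 1 to 2 FPKM and 0.0839% at 10 FPKM or more, and 2 of the 5 members were in each of these classes. This count was made after the values had been seen, and with a pseudocount of 1 only 1 member was higher in all 3. In any size, 35 members (24.3%) were higher in all 3, against 24.6% of all loci, and 17 (11.8%) lower, against 13.2%.

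Of the 5 higher members, 4 are described here. ZNF385D-AS1 (chr3:21584307-21621451, hg19) stood at 6.16 and 9.70 FPKM in whole-cell, 6.26 and 13.1 FPKM in nuclear and 10.6 and 20.6 FPKM in cytosolic RNA, with log2 ratios of 0.65, 1.05 and 0.95. ZNF385D was below 1 FPKM in every library. EIF3J-AS1 (chr15:44819454-44829121, hg19) had ratios of 0.70, 0.60 and 1.84, from 2.74 and 4.51 FPKM in whole cells, 2.67 and 4.09 FPKM in nuclei and 1.27 and 4.80 FPKM in cytosol, while EIF3J had 0.19, 0.23 and -0.18. Its transcript region lies beside EIF3J and does not overlap it.

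SBF2-AS1 stood at 0.862 and 1.43 FPKM in whole-cell, 0.666 and 1.13 FPKM in nuclear and 1.99 and 4.85 FPKM in cytosolic RNA, with SBF2, a myotubularin-related gene, at 0.26, -0.20 and -0.06. USP46-AS1 stood at 0.730 and 1.35 FPKM, 0.683 and 1.79 FPKM and 0.902 and 1.71 FPKM in the same order, with USP46, a deubiquitinase gene, at 0.32, -0.14 and 0.14. The lower member, HCFC1-AS1, stood at 1.89 and 0.462 FPKM, 3.19 and 1.31 FPKM and 2.51 and 1.15 FPKM, on an estimated 1.12 to 8.04 fragments per library. None of its 3 ratios was outside its 95% counting interval, and HCFC1, a transcriptional coregulator gene, had 0.15, -0.02 and 0.15.

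**Figure D4:**
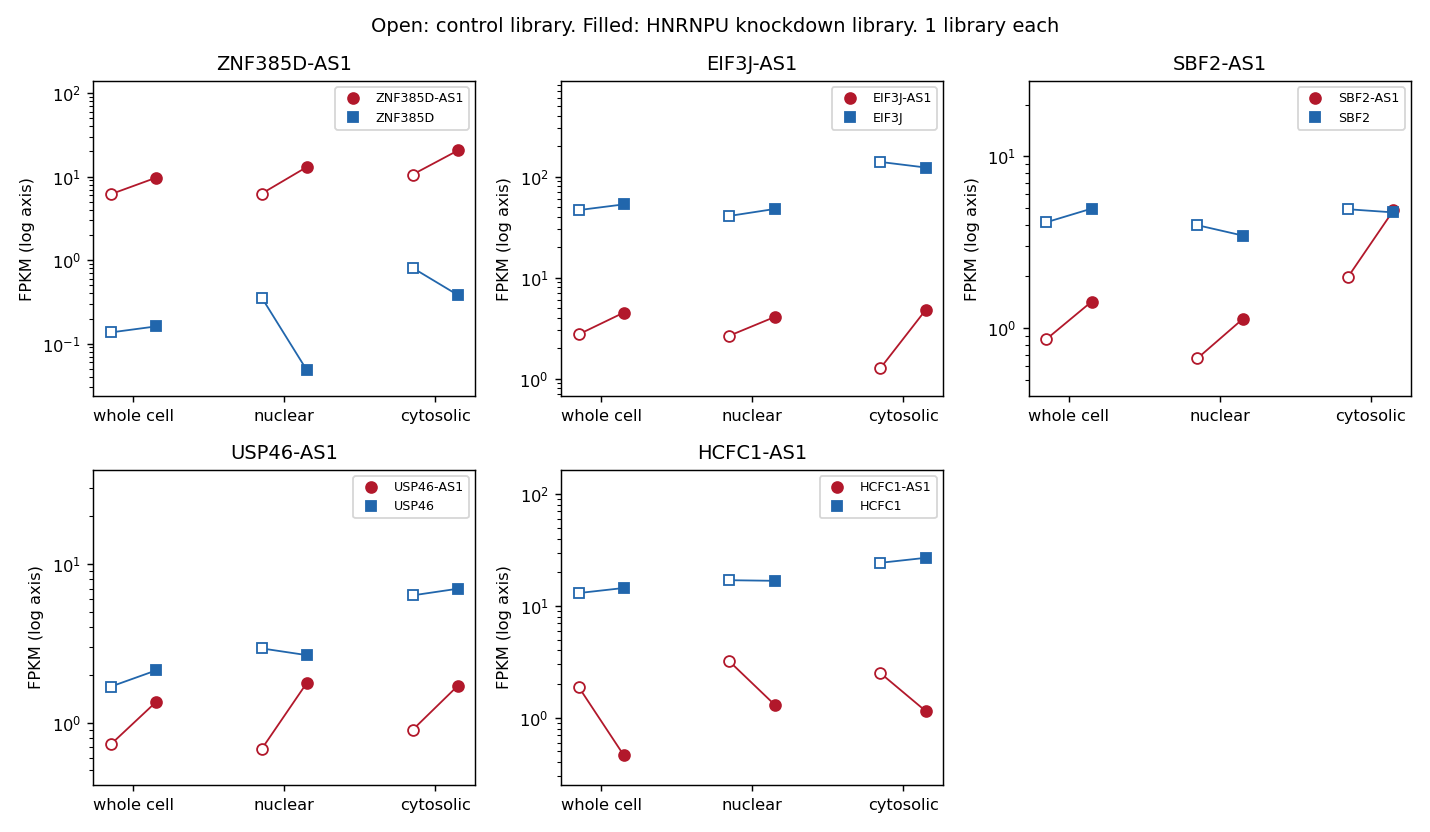
FPKM (log axis) of 4 of the 5 antisense loci at least 1.5-fold higher and the 1 at least 1.5-fold lower after knockdown in whole-cell, nuclear and cytosolic RNA (circles), with their sense loci (squares). Open symbols are control and filled symbols knockdown, 1 library each; in the 5 panels drawn, the circles differ in the same direction in all 3 preparations and the squares do not follow them.

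Of a list of 30 well-studied antisense RNAs, 11 were members, 8 were below the minimum, 7 lay in merged loci and 4 were not among the names. Beside OIP5-AS1, TPT1-AS1, SBF2-AS1 and ZNF385D-AS1, the members were FOXD2-AS1, MCM3AP-AS1, TMPO-AS1, ZEB1-AS1, AFAP1-AS1, NUTM2A-AS1 and PXN-AS1. These 7 had shifts between -0.16 and 0.31. FOXD2-AS1 and FOXD2 were both higher after knockdown in the 3 preparations, by near ratios in whole-cell and nuclear RNA but not in cytosolic RNA. The log2 ratios were 0.38, 0.56 and 0.37 in whole-cell, nuclear and cytosolic RNA for FOXD2-AS1, and those of FOXD2, a forkhead factor gene, were 0.34, 0.60 and 0.83. Its levels were 8.30 and 10.8 FPKM in whole cells, 11.6 and 17.1 FPKM in nuclei and 7.17 and 9.27 FPKM in cytosol, control first. ZEB1-AS1 had ratios of 0.32, 0.52 and 0.57 while ZEB1, a repressor in epithelial to mesenchymal transition, had -0.53, -0.10 and 0.48.

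Other classes by name at 1 FPKM or more give the setting. The 68 loci with LINC names had a median log2 nuclear to cytosolic ratio of -0.08 in the control and a median shift of -0.11, with 6 of 68 at least 2-fold toward the cytosol (8.82%, against 3.82% of all loci) and 2 toward the nucleus (2.94%, against 3.28%). The 24 merged loci that include an antisense name had 0.11 and -0.01. The 6 intronic transcripts, with names ending in -IT, were all on the nuclear side, at a median of 1.37. Of these, 3 shifted 2-fold toward the nucleus (50%, against 3.28% of all loci) and 1 toward the cytosol (16.7%, against 3.82%). Their lowest fraction library held a median of only 0.507 estimated fragments, and their median counting error of the shift was 1.06, so these shifts are poorly supported. The antisense members, at -0.31, were thus the least nuclear of these 4 classes by median, but the interval over members reached 0.01 and that over LINC loci ran from -0.50 to 0.50.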

How the data were processed

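RNA from 6 K562 libraries, 1 per condition and preparation, was analysed from the deposited table of FPKM values per locus, which the authors made; tools listed in the submitters' processing notes, without roles, are TopHat2 2.0.13, Cuffdiff 2.2.1, CASAVA and FastQC, and per the file headers the coordinates are of the locus; the notes name hg19. The sources do not state how multi-mapped or antisense reads were counted. Raw counts were not used here. Ratios were taken on log2(FPKM + 0.1) with Python 3.11.15, pandas 2.3.3 and scipy 1.17.1. A locus was used at a mean of at least 1 FPKM. With 1 library per group no test was run; intervals for medians are 95% rank intervals over loci and do not cover variation between cultures. Fragment numbers were estimated from the smallest FPKM steps of single-exon loci and GENCODE 29 transcript lengths less 220 bases, for 141 of 144 members; 31.2% to 52.6% of low loci lay at the step, and counting errors cover counting only. The calculations were tested on simulated data, as a check of the code only. No rate of recovered or false shifts below 5 FPKM is given from it. The simulation therefore says nothing on the reliability of the 2-fold shifts there, where most of them lie. The members and lists were chosen with earlier results of these data known. Named members are those with the highest mean, the most extreme fraction ratios, shifts, whole-cell ratios and antisense to sense levels, the closest and farthest pairs, and a list of well-studied antisense RNAs; those that differed in all 3 preparations were named after their values were seen. Alternatives were other pseudocounts, minimums, scalings and subsets of pairs. Some members that these rules would name are not reported here.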

Additional observations from a re-analysis of the deposited data

Results flagged for a closer look

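RBM26-AS1 differed in opposite directions between preparations. Its knockdown to control log2 ratio was 1.07 in whole-cell RNA (0.923 and 2.04 FPKM) and -0.71 in nuclear RNA (3.01 and 1.81 FPKM), at least 1.5-fold each way. The highest and lowest ratio of the 3 preparations were 1.77 apart. With 1 library per group the difference was not tested.

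TOB1-AS1 had a ratio of 0.61 in whole-cell RNA (0.960 and 1.52 FPKM) and -0.66 in nuclear RNA (0.948 and 0.561 FPKM). These were 1.27 apart, on an estimated 10.3 to 16 fragments per library, and the difference was not tested. TOB1-AS1 was named after its values were seen. No other member was at least 1.5-fold higher in 1 preparation and 1.5-fold lower in another.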

How the results depend on the processing

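The 13 summary results and the 2 counts over all 3 preparations were recomputed under 152 alternatives; 115 gave a value within 1.5 times a count or inside the interval of the main value. Counts moved with level and pseudocount, and in each case the cause was not tested beyond the change in the members that enter. With a pseudocount of 1, 3 members shifted 2-fold toward the cytosol and 4 toward the nucleus, 0 were 2-fold higher and 0 lower in whole-cell RNA, and 1 was 1.5-fold higher in all 3 preparations. With no minimum (455 loci) these counts were 49, 59, 38, 39 and 10, with 5 lower in all 3, and the median nuclear to cytosolic log2 ratio after knockdown reversed to 0.094. With a minimum mean of 5 FPKM (47 members) they were 0, 1, 0, 1 and 2, with 0 lower in all 3, the median ratios were -0.61 in the control and -0.65 after knockdown, antisense minus sense was 0.056, and r of the shift across pairs was -0.0081. At 1.5-fold, 23 members shifted toward the cytosol, 18 toward the nucleus, 15 were higher and 7 lower in whole-cell RNA. Quantile normalization left 4 members shifted toward the cytosol and reversed antisense minus sense to -0.072. Median scaling gave median ratios of 0.10 in the control and 0.18 after knockdown, and equal totals without mitochondrial and small RNA 0.91 and 0.91, so the sign of that median depends on the scaling. Pairs that do not overlap had the same sign of the shift in 35.5%, r of -0.39 for the shift and 0.22 for the whole-cell ratio. An alternative chosen after seeing the data, at least 10 estimated fragments in each fraction library (109 members), left 4 shifted toward the cytosol and 1 toward the nucleus. Shares of all loci under these alternatives are not given beside the counts. Of 650 recomputed values of single named members none with a 2-fold difference changed sign, and 640 lay within the counting interval of the main value. The other 10 are of C17orf76-AS1, which has no estimated length and so no interval, and its shift of 0.26 ran from 0.21 to 0.30. The counting interval is wide at low fragment numbers, so a value inside it says little there. The CHKB-AS1 shift of 2.54 was 0.48 with a pseudocount of 1 and 5.65 with 0.01, and both lay inside. Of the 14 shifts of 2-fold, 7 fell below that size with a pseudocount of 1 and 4 under quantile normalization. No paired analysis was possible because each group has 1 library. Low estimated fragment numbers in the cytosolic libraries limit the shifts of members below 5 FPKM.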
